A study of Bos taurus with 18 samples.

Results

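Cartilage and bone cells arise from shared mesenchymal progenitors, and a small set of genes marks each path. SOX9 is the transcription factor that starts the cartilage programme, SOX5 and SOX6 are its partner factors, and ACAN, COL2A1 and COMP encode matrix proteins of cartilage. RUNX2 and SP7 are the transcription factors of the bone path, ALPL encodes the phosphatase that allows mineral to form, and IBSP encodes a glycoprotein of mineralized matrix. Dermal and other fibroblasts normally make little of the cartilage matrix, and RUNX2 alone is not specific to bone.

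These 10 genes were read out of a table of 24596 genes by symbol, and each matched 1 row. The table covers 18 RNA-seq libraries from cattle fibroblasts of 2 lines, labelled Holstein-Like and Simmental-Like, at 3 stages with 3 libraries each. The Simmental-like stages are primary cells (cell line PBF-13), senescent cells (Sn-BF-13) and an immortalized line (HUN-BF-13). The Holstein-like stages are PBF-15, Sn-BF-15 and HUN-BF-15. No transgene or drug is named in the labels, which give neither the age of the animals nor the body site. The culture name in the column changes with the stage, from BDF-20-3B-4 in primary to BDF-20-MultiXray-Ctrl in senescent and to BF-13 in immortalized Simmental-like libraries. In the Holstein-like columns it changes from BEF in primary to BF-15-P9 in senescent and to BF-15-P23 in immortalized libraries. The senescent Simmental-like name holds the words MultiXray and Ctrl, and whether or how those cells met X-rays cannot be read from it. The labels do not say how these cultures are related, so an effect of stage and one of culture cannot be told apart. All Holstein-like columns carry the word Rerun, so line and rerun cannot be told apart either. The replicates are called biological with no word on separate cultures, so the p-values cover the spread between libraries only, and part or all of that may be technical.

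Total counts, in units of 1000000, were 18.2 to 23.2 in the Simmental-like libraries, 11 to 14.1 in the senescent and immortalized Holstein-like libraries and 1.42 to 1.47 in the Holstein-like primary ones. Levels are CPM, the count of a gene per 1000000 counts of its column. A count of 0 allows a level of up to 3 counts, or 0.129 to 0.165 CPM in a Simmental-like library and up to 2.11 CPM in a Holstein-like primary library. A list of 7 fibroblast culture genes, among them COL1A1, VIM and DCN, summed to 37700 to 62800 CPM in the Simmental-like libraries and to 63700 CPM in Holstein-like immortalized library 3. In the other 8 Holstein-like libraries the same list summed to 311 to 1360 CPM, and the summed genes of an organ (skeletal muscle, heart, liver or kidney) stood above it in each of the 8, so these libraries go against their label and are given as levels only. Holstein-like immortalized library 3 also held markers of other cells at levels not seen in the Simmental-like cultures: endothelial genes summed to 4720 CPM (at most 10.7 in any Simmental-like library), immune genes to 3020 CPM (at most 4.1) and pericyte and smooth muscle genes to 704 CPM (at most 238). It therefore goes in part against its label as well. Among the Simmental-like libraries the primary ones differed most from each other (chi-square per gene of 190 and 370 between primary library 1 and the others, and 41.8 between those), followed by the immortalized (6.57 to 24.4) and the senescent ones (1.36 to 3.96). The comparisons below are between Simmental-like stages and with Holstein-like immortalized library 3. Fewer cells of a type and less RNA per cell cannot be told apart in bulk samples.

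SOX9, SOX5, ACAN, COL2A1 and COMP were each below 1 CPM in primary Simmental-like libraries and higher at both later stages, while the bone genes did not follow a common course. Between senescent and primary libraries SOX9, SOX5, ACAN, COL2A1, COMP and RUNX2 rose and SP7 fell. COL2A1 rose again in the immortalized libraries, in which RUNX2 and SP7 were lower than in senescent ones. ALPL and IBSP stayed below 1 CPM in every Simmental-like library.

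SOX9 (ENSBTAG00000045824) had 0, 0 and 1 counts in the primary libraries, where 1 count is 0.0544 CPM. Its level was 10.6, 11.9 and 12.3 CPM in the senescent libraries and 8.34, 8.18 and 9.31 CPM in the immortalized ones. Every library of the later stages lay above every primary library, and the immortalized libraries all lay below the senescent ones. Over summed counts the senescent level was 716 times the primary one (128 to 28300; such ranges are 95% intervals for counting error alone; adjusted p = 1.26e-06 in the edgeR quasi-likelihood test with Benjamini-Hochberg adjustment over all genes). The immortalized level was higher than the primary one by a ratio of 533 (95.2 to 21100, edgeR adjusted p = 1.04e-06). The 1 primary count lay in library 3, and without this library the primary stage was at 0 and the fitted log2 change of SOX9, which then depends on the prior count, went from 8.62 to 10.68 for senescent and from 8.35 to 10.42 for immortalized libraries. Between immortalized and senescent libraries the fitted log2 change of -0.27 ± 0.19 (SE) did not pass the threshold of 0.05 (edgeR adjusted p = 0.32), although the libraries did not overlap. It passed in the fit on these 6 libraries alone (-0.28, adjusted p = 0.0323).

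SOX5 (ENSBTAG00000022360), whose product binds beside SOX9 at cartilage enhancers, showed the same steep step. Primary libraries held 0, 0 and 1 counts of it, followed by 8.76, 7.84 and 8.55 CPM in the senescent and 10.9, 9.67 and 7.74 CPM in the immortalized libraries. The later stages overlapped each other and were both far above the primary stage. The ratio to primary was 519 (92.7 to 20500, edgeR adjusted p = 2.83e-06) for senescent and 581 (104 to 23000, edgeR adjusted p = 1.47e-06) for immortalized libraries. Here too the 1 count lay in primary library 3, without which the fitted change went from 8.15 to 10.22 and from 8.48 to 10.55. The change from senescent to immortalized was 0.33 ± 0.21 on the log2 scale and did not pass (edgeR adjusted p = 0.261).

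SOX6 (ENSBTAG00000044185), which acts together with SOX5 in cartilage, was counted far less often. Its counts were 0 in all primary libraries, 7, 4 and 6 in the senescent ones and 0, 0 and 1 in the immortalized ones. The senescent level of 0.286 ± 0.067 CPM (SD, n = 3) was at least 5.93-fold higher than in primary libraries, with 3 counts over the primary group as the floor. It was lower in immortalized than in senescent libraries by a ratio of 16.7 (2.62 to 698). SOX6 did not pass the filter on low counts and has no main test. Without that filter it passed between senescent and primary (edgeR adjusted p = 0.00803) and between immortalized and senescent libraries (edgeR adjusted p = 0.0248).

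**Figure D1:**
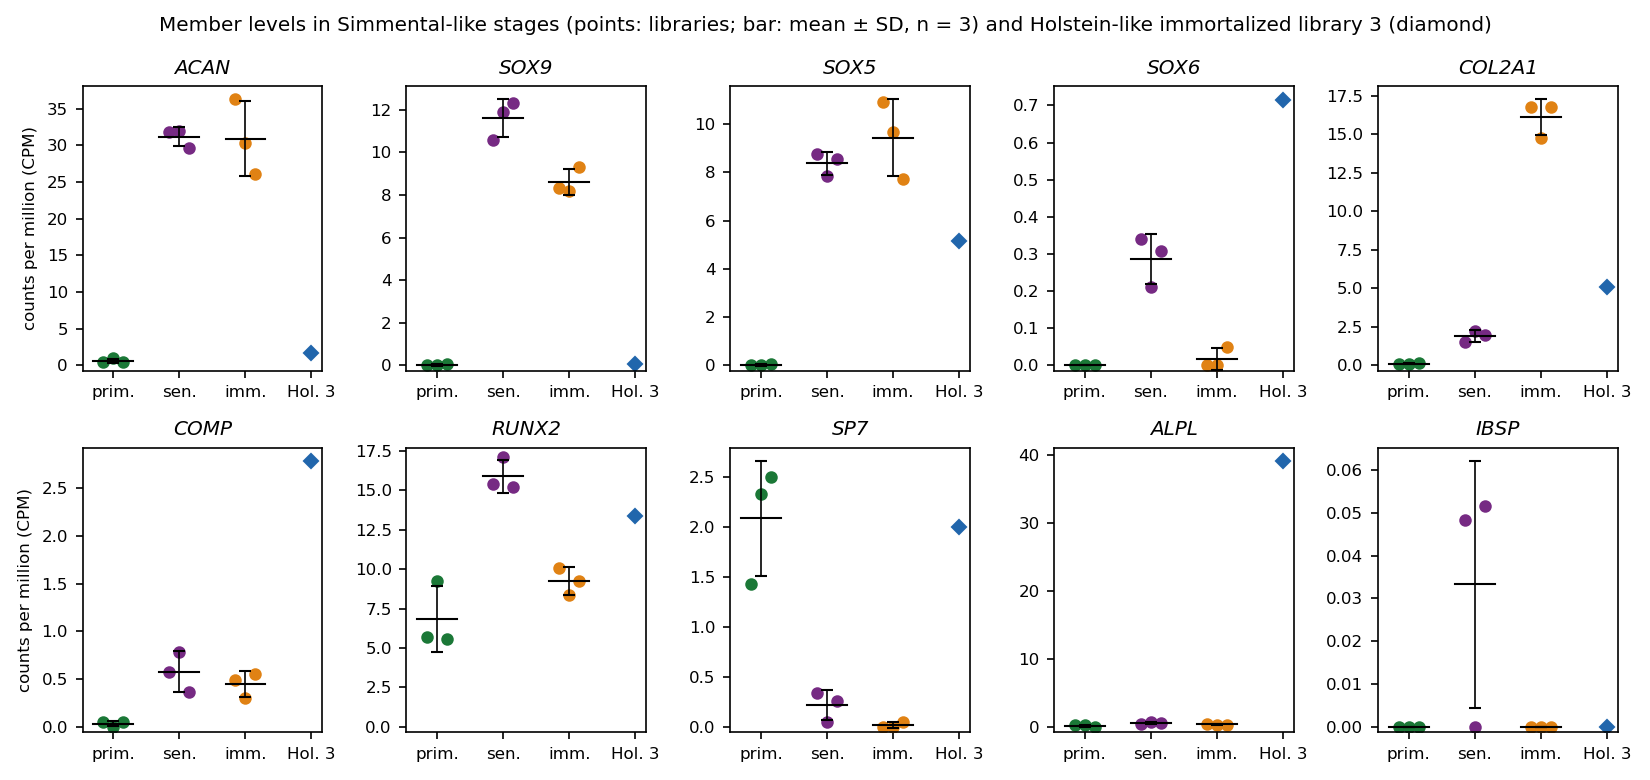
Level of each gene in CPM (vertical axis, linear, 1 scale per panel) in the 3 Simmental-like stages, with points for libraries and bars for mean ± SD (n = 3), and in Holstein-like immortalized library 3 (blue diamond). SOX9, SOX5 and ACAN step up between primary and senescent libraries, COL2A1 is highest in immortalized ones (14.8 to 16.8 CPM), and ALPL is high in the Holstein-like library alone (39.1 CPM).

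Among the matrix genes, ACAN (ENSBTAG00000016158), which encodes aggrecan, the large proteoglycan that holds water in cartilage, had the widest step in CPM. Primary libraries held 0.445, 0.948 and 0.435 CPM, senescent libraries 31.8, 32.0 and 29.7 CPM and immortalized libraries 36.3, 30.3 and 26.1 CPM. No later library came near the primary range, and the later stages overlapped. The fitted change was 5.18 ± 0.25 for senescent (edgeR adjusted p = 1.82e-06) and 5.33 ± 0.26 for immortalized libraries against primary (edgeR adjusted p = 1.10e-06). Between the later stages it was 0.15 ± 0.19 (edgeR adjusted p = 0.59), and its sign turned to -0.01 when libraries were scaled by total counts.

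COL2A1 (ENSBTAG00000013155), the gene of the main fibrillar collagen of cartilage, rose in steps. It stood at 0.0988, 0.0862 and 0.163 CPM in primary, 1.5, 2.26 and 1.96 CPM in senescent and 16.8, 14.8 and 16.8 CPM in immortalized libraries. The 3 stages did not overlap. The senescent change against primary was 3.54 ± 0.30 (edgeR adjusted p = 3.23e-05). From senescent to immortalized it rose by a further 3.24 ± 0.19 (edgeR adjusted p = 9.63e-06), which is a ratio of 8.50 over summed counts (6.98 to 10.4). In all, immortalized libraries were higher than primary ones by a ratio of 142 (68.8 to 355). In a fit on all 18 libraries, whose estimate of the spread takes in the Holstein-like libraries, neither the first step (3.48, adjusted p = 0.0572) nor the second (3.25, adjusted p = 0.121) passed.

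COMP (ENSBTAG00000004630), a matrix protein of cartilage and tendon, changed at a low level. It had 1, 0 and 1 counts in primary, 12, 15 and 7 in senescent and 9, 6 and 11 in immortalized libraries. Both later stages lay above the primary libraries and overlapped each other. The ratio to primary was 17.8 (4.56 to 153, edgeR adjusted p = 0.00309) for senescent and 13.8 (3.47 to 120, edgeR adjusted p = 0.00516) for immortalized libraries. The change between the later stages was -0.19 ± 0.42 (edgeR adjusted p = 0.752), and it was 0.09 without senescent library 2 and 0.04 without immortalized library 2. In the fit on all 18 libraries COMP did not pass against primary at either stage (adjusted p = 0.0943 and 0.132).

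The bone factors parted. RUNX2 (ENSBTAG00000004104) was measured in every Simmental-like library, at 5.68, 9.27 and 5.55 CPM in primary, 15.4, 17.1 and 15.2 CPM in senescent and 10.1, 8.34 and 9.26 CPM in immortalized libraries. The senescent libraries stood above all others, and the range of primary libraries overlapped that of the immortalized ones because of primary library 2. RUNX2 rose by 0.75 ± 0.18 from primary to senescent (edgeR adjusted p = 0.00745, or 1.21 when scaled by total counts) and fell by 0.62 ± 0.18 from senescent to immortalized (edgeR adjusted p = 0.0278). The fall lost its call when any 1 of the 6 senescent or immortalized libraries was left out, with changes of -0.69 to -0.54 and adjusted p of up to 0.114, and when senescent libraries 1 and 2 were summed to 1 (-0.61, adjusted p = 0.0834). In the fit on all 18 libraries neither the rise (adjusted p = 0.503) nor the fall (adjusted p = 0.801) passed. Between immortalized and primary libraries the change was 0.13 ± 0.18 and did not pass (edgeR adjusted p = 0.563), and it was -0.01 without primary library 3.

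SP7 (ENSBTAG00000033292), also called osterix, acts after RUNX2 in bone formation and went the other way from SOX9. Its level was 1.43, 2.33 and 2.50 CPM in primary libraries, from 29, 54 and 46 counts. Senescent libraries had 7, 1 and 5 counts, and immortalized libraries had 0, 0 and 1. The stages did not overlap, and primary libraries were highest. The senescent level was lower than the primary one by a ratio of 9.48 (5.35 to 18.3, edgeR adjusted p = 0.000246). The immortalized level was lower than the primary one by a ratio of 121 (21.4 to 4820, edgeR adjusted p = 6.62e-05). The further fall from senescent to immortalized rests on 13 counts against 1, a ratio of 12.8 (1.92 to 543, edgeR adjusted p = 0.0452). It lost its call when any 1 of 7 libraries was left out (primary 2 or 3, senescent 1 or 3, or any immortalized library, with changes of -4.97 to -2.61 and adjusted p from 0.0517 to 0.14), without the filter (0.0519) and in the fit on all 18 libraries (0.404).

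ALPL and IBSP, the later genes of the bone path, were close to absent from the Simmental-like counts. ALPL (ENSBTAG00000008951) had 4, 5 and 0 counts in primary, 8, 14 and 12 in senescent and 8, 6 and 6 in immortalized libraries, or at most 0.737 CPM. Over summed counts the senescent level was higher than the primary one by a ratio of 3.95 (1.86 to 9.37). ALPL did not pass the filter on low counts in the fit on 9 libraries. Without the filter its change of 1.49 ± 0.61 had an edgeR adjusted p of 0.077. IBSP (ENSBTAG00000000470) had 2 counts over the senescent libraries and 0 in the other 6, which is below the floor, so no fold is given.

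**Figure D2:**
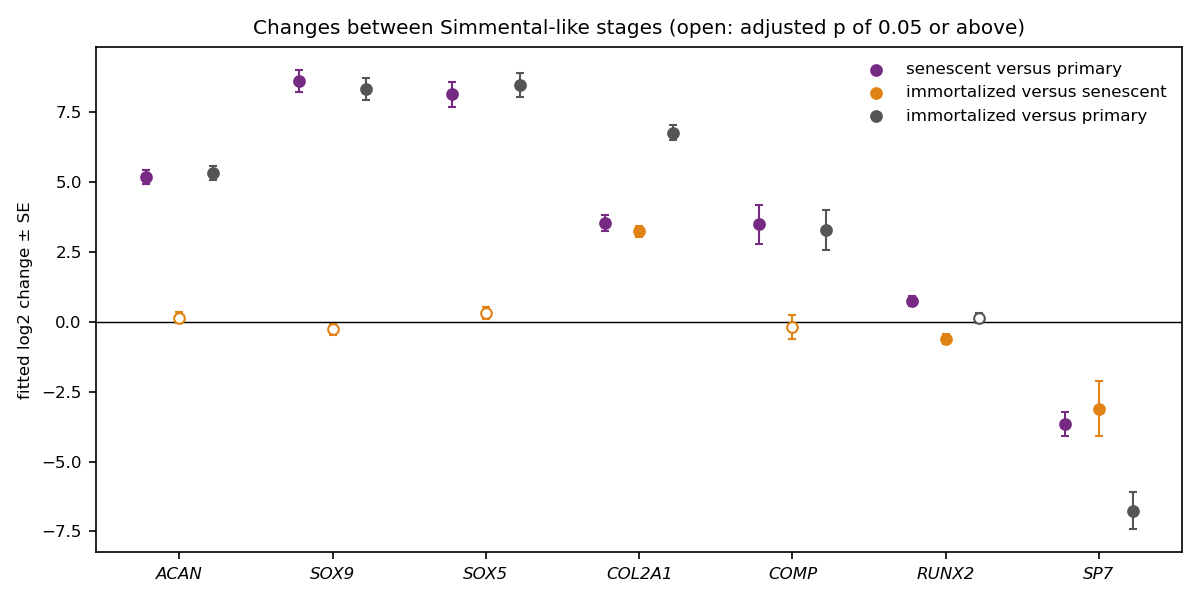
Fitted log2 change ± SE (vertical axis) of the 7 genes that passed the filter on low counts, for each pair of Simmental-like stages. Filled points have an adjusted p under 0.05. The orange points, for immortalized against senescent libraries, lie near 0 for ACAN, SOX9, SOX5 and COMP and at 3.24 for COL2A1. The fitted values of SOX9, SOX5 and SP7 rest on groups with 1 count and depend on the prior count of the fit.

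Counted together, 7 of the 10 genes passed the filter on low counts. Between senescent and primary libraries 6 were higher and 1 lower, whereas 58.0% of 13099 tested genes passed (28.3% higher, 29.7% lower). Their median change was 3.54, beside 0.01 for all tested genes. Between immortalized and senescent libraries 1 was higher and 2 were lower (32.4% of all genes passed, 16.4% higher and 16.1% lower), with a median of -0.19 beside 0.00 for all genes. That share rests on 4249 calls, which became 7793 without primary library 1 and 8600 in the fit on the 6 libraries compared. Between immortalized and primary libraries 5 were higher and 1 lower (50.4% of all genes passed, 24.9% higher and 25.5% lower), with a median of 5.33. SOX9, SOX5, ACAN, COL2A1, COMP and SP7, all of the 7 but RUNX2, passed the filter through the stages at which they were high, and these counts and medians are descriptions. Of the 7 tested members, stages did not overlap for 7 between senescent and primary libraries (69.2% of tested genes). They did not overlap for 4 between immortalized and senescent (71.5%) and for 6 between immortalized and primary libraries (58.4%). With the untested members these counts were 9, 5 and 7 of 10. Scaling by total counts moved the median change over all genes by 0.46, -0.16 and 0.30 in these comparisons and changed the call of 0 of the 7 genes.

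Other genes of cartilage matrix did not all move with ACAN and COL2A1. Of 28 listed genes 27 were in the table and 14 were tested. In senescent against primary libraries 6 of the 14 were higher and 5 lower (median 0.11, or 7 and 3 when scaled by total counts). HAPLN1, which encodes the link protein that fixes aggrecan to hyaluronan, had 2 counts in primary libraries and 4.50, 4.37 and 4.17 CPM in senescent ones, a ratio of 134 (36.8 to 1120, edgeR adjusted p = 7.33e-06). CILP2 rose by 2.78 ± 0.27 and CILP by 2.80 ± 0.69, both genes of cartilage intermediate layer proteins. The collagen gene COL11A2 rose by 2.78 ± 0.48. COL11A1 had means of 177, 379 and 546 CPM in primary, senescent and immortalized libraries. It was higher in senescent (0.66 ± 0.19) and immortalized (1.35 ± 0.20) than in primary libraries, and in immortalized than in senescent ones (0.69 ± 0.19). MATN2, a matrilin of connective tissue, fell by 2.99 ± 0.40. CRTAC1, a cartilage acidic protein gene, fell by 2.6 ± 0.2 and HAPLN3, another link protein, by 1.69 ± 0.11. Between immortalized and senescent libraries 4 genes were higher and 2 lower (2 and 2 when scaled by total counts). HAPLN3 rose by 0.83 ± 0.11 and MATN2 by 1.79 ± 0.41. CILP2 fell by 3.1 ± 0.27, and CRTAC1 went from 67 counts to 0, at least 21.9-fold lower.

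Against primary, immortalized libraries had 4 cartilage matrix genes higher and 4 lower (6 and 3 when scaled by total counts). HAPLN1 was higher by a ratio of 207 (56.8 to 1710), COL11A2, a minor cartilage collagen, by 3.66 ± 0.44 and MIA by 1.89 ± 0.65 on the log2 scale. CRTAC1 was at least 97.0-fold lower, and HAPLN3 (-0.86 ± 0.11) and MATN2 (-1.2 ± 0.36) were also lower than in primary libraries. The collagens of the type IX family, which decorate type II fibrils in cartilage, stayed low. COL9A1 had 0, 3 and 4 counts in all over the primary, senescent and immortalized stages, and COL9A3 had 7, 9 and 5. COL9A2 had 15, 23 and 31 counts, was tested and did not pass in any comparison (0.82 ± 0.48 for immortalized against primary).

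Genes of bone matrix and mineralization were measured for 21 of 22 symbols, and 14 were tested. From primary to senescent 6 rose and 6 fell (median -0.48). ENPP1, which makes the mineral inhibitor pyrophosphate, stood at 0.198, 0.647 and 0.272 CPM in primary, 2.90, 3.26 and 2.99 CPM in senescent and 0.220, 0.199 and 0.202 CPM in immortalized libraries. It was high at the senescent stage alone, with a rise of 2.53 ± 0.30 (edgeR adjusted p = 0.000193) and a fall of 3.68 ± 0.33 (edgeR adjusted p = 9.24e-05). The matrix genes ASPN (-3.92 ± 0.14) and POSTN (-3.34 ± 0.26) and the mineral inhibitor MGP (-1.92 ± 0.48) fell from primary to senescent.

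From senescent to immortalized libraries 2 of these 14 genes rose and 4 fell (1 and 4 when scaled by total counts). SLC20A2, a phosphate transporter, fell by 1.49 ± 0.14, CDH11 fell by 0.96 ± 0.29 and ASPN rose by 0.95 ± 0.13. Against primary, 3 were higher and 9 lower in immortalized libraries (4 and 7 when scaled by total counts). Besides ASPN (-2.96) and POSTN (-4.24), the phosphatase gene PHOSPHO1, which acts in mineral-forming vesicles, was lower by 2.23 ± 0.28 and MGP by a ratio of 17.5 (5.70 to 87.5).

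Lineage transcription factors were in the table for 32 of 35 symbols, and 27 were tested. Between senescent and primary libraries 11 were higher and 6 lower (median 0.29). NKX3-2 and PAX9, factors of axial cartilage, had 0 and 3 counts in primary libraries. NKX3-2 then had 0.822, 0.579 and 0.979 CPM in senescent and 3.02, 3.54 and 3.90 CPM in immortalized libraries, at least 16.4-fold and at least 72.1-fold above primary. PAX9 had 8.61, 8.05 and 7.26 CPM and then 14.8, 14.6 and 13.4 CPM, ratios of 165 (56.0 to 801) and 294 (100 to 1430) to primary. Both rose again from senescent to immortalized, NKX3-2 by 2.29 ± 0.25 (edgeR adjusted p = 0.000726) and PAX9 by 1.00 ± 0.12 (edgeR adjusted p = 0.000467). SCX, the tendon factor, fell by 3.07 ± 0.62 and OSR1 fell by 2.81 ± 0.26 from primary to senescent libraries.

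Between immortalized and senescent libraries 7 of the 27 factors were higher and 4 lower (6 and 6 when scaled by total counts). TWIST1 rose by 0.93 ± 0.12 and TRPS1, a regulator of cartilage growth, by 0.92 ± 0.22. Against primary, 11 were higher and 8 lower (12 and 5 when scaled by total counts), among them TRPS1 (3.03 ± 0.25) and SCX (-4.20 ± 0.74).

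**Figure D3:**
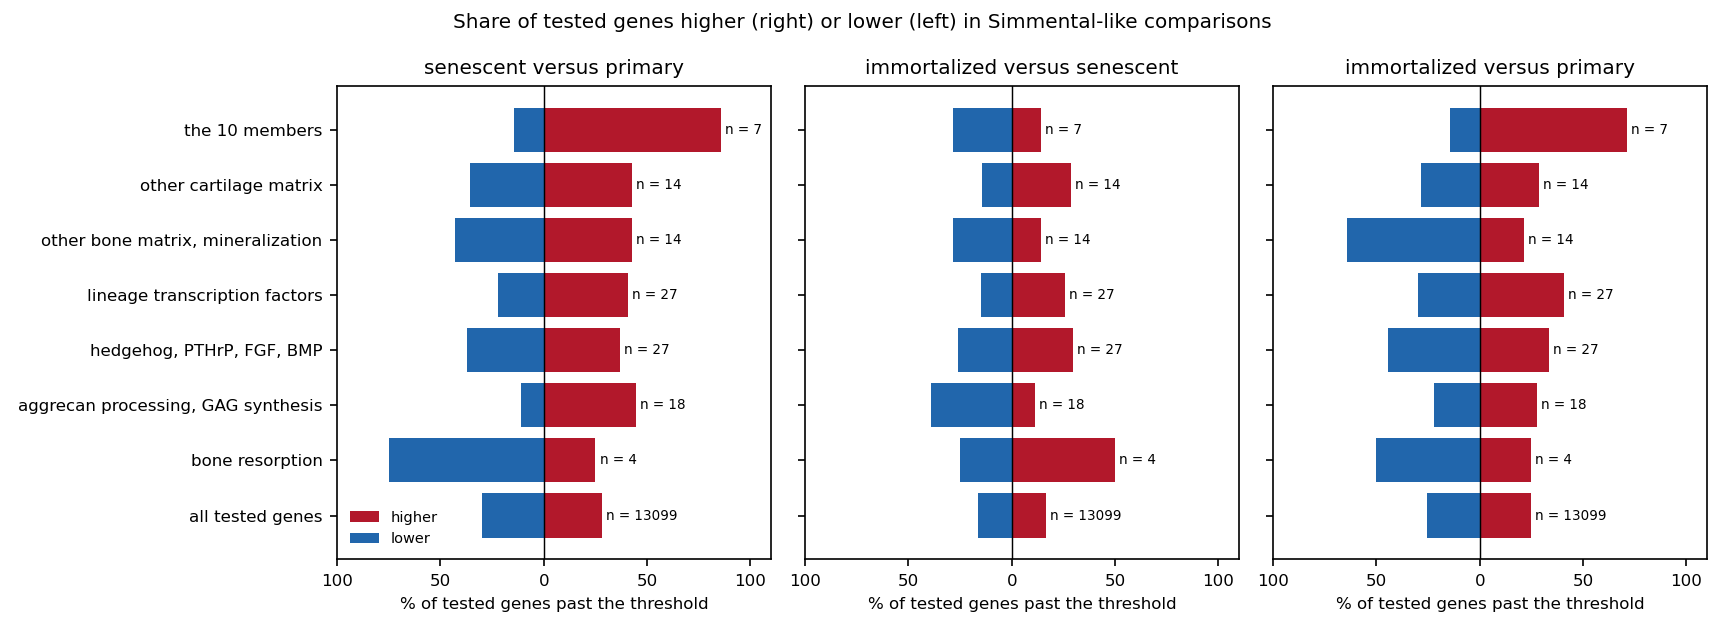
Share of tested genes with an adjusted p under 0.05 (horizontal axis, percent), higher to the right and lower to the left, for the 10 genes, 6 lists of related genes and all tested genes, with the number tested beside each bar. The 10 genes and the 6 lists all have bars on both sides in all 3 comparisons. All tested genes stand at 58.0%, 32.4% and 50.4% in all.

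Signalling genes of the growth plate were in the table for 36 of 38 symbols, and 27 were tested. Senescent against primary, 10 were higher and 10 lower (median -0.30). WNT5A rose by 3.32 ± 0.23, the growth factor gene FGF9 by 2.79 ± 0.46 and PTCH1, a hedgehog receptor and target, by 2.25 ± 0.37, and the WNT co-receptor gene LRP5 fell by 2.30 ± 0.16. Between immortalized and senescent libraries 8 rose and 7 fell (6 and 9 when scaled by total counts). PTH1R, the receptor of PTHrP in cartilage and bone, went from 0.0484, 0.158 and 0.103 CPM to 1.87, 1.89 and 2.28 CPM, a change of 4.38 ± 0.35 (edgeR adjusted p = 5.02e-05). FGF18 (-2.55 ± 0.38) and FGF9 (-2.36 ± 0.42) fell, and BMP7 was lower by a ratio of 17.2 (4.42 to 148). Against primary, 9 were higher and 12 lower (10 and 7 when scaled by total counts), led by WNT5A (4.21 ± 0.24), FGF18 (-3.57 ± 0.37), PTH1R (2.45 ± 0.30) and the BMP antagonist gene NOG (-2.29 ± 0.29).

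Of 22 genes of aggrecan processing and of the synthesis of glycosaminoglycans, the long sugar chains of matrix, 20 were in the table and 18 were tested. Between senescent and primary libraries 8 were higher and 2 lower (median 0.94, or 11 and 1 when scaled by total counts), among them the hyaluronan synthases HAS2 (2.41 ± 0.25) and HAS3 (1.54 ± 0.26), ADAMTS1 (1.75 ± 0.11) and CHSY3, a chondroitin synthase (1.73 ± 0.48). From senescent to immortalized 2 rose and 7 fell (median -0.56). ADAMTS5, an aggrecanase, stood at 46.0, 47.4 and 45.4 CPM in senescent and 2.09, 1.65 and 1.67 CPM in immortalized libraries and fell by 4.52 ± 0.42 (edgeR adjusted p = 0.000114). ADAMTS1 fell by 2.27 ± 0.11, XYLT1 by 2.25 ± 0.60 and HAS2 by 1.88 ± 0.24. Against primary, 5 were higher and 4 lower (6 and 2 when scaled by total counts), with ADAMTS5 at -4.25 ± 0.41, CHSY3 at 3.22 ± 0.49, HAS3 at 1.18 ± 0.27 and CHPF, a chondroitin polymerizing factor, at 1.17 ± 0.16.

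The bone resorption list holds genes of osteoclasts, and 4 of its 10 genes were tested. Between senescent and primary libraries 1 was higher and 3 lower (1 and 1 when scaled by total counts). CALCR, the calcitonin receptor gene, had 0 counts in primary libraries and was at least 3.49-fold and 47.2-fold higher in senescent and immortalized ones. ACP5 fell by 2.12 ± 0.28, OSCAR by 1.14 ± 0.32 and CTSK, a protease that fibroblasts also make, by 0.60 ± 0.16. In immortalized libraries CALCR (3.86 ± 0.43) and OSCAR (1.08 ± 0.32) were higher than in senescent ones and CTSK was lower (-0.91 ± 0.16). Against primary, CALCR was higher and CTSK (-1.51 ± 0.16) and ACP5 (-1.45 ± 0.27) were lower.

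Marker lists of whole cell types were summed in each library. The chondrocyte list, which includes ACAN, COL2A1 and SOX9 and of which 13 of 14 genes were in the table, summed to 2.45 to 3.66 CPM in primary, 51.1 to 53.9 CPM in senescent and 62.4 to 69.7 CPM in immortalized libraries. Most of that was the 3 members themselves, at 0.543 to 1.03, 43.9 to 46.2 and 52.2 to 61.4 CPM, and the other 10 genes summed to 1.8 to 3.11, 7.16 to 7.74 and 8.29 to 10.9 CPM. Most of the rise in those 10 was HAPLN1, at 0 to 0.0544, 4.17 to 4.50 and 5.49 to 7.68 CPM. COL11A2 also rose (medians of 0.0988, 0.773 and 1.15 CPM), and CHAD fell (1.16, 0.824 and 0.598 CPM). At 1 CPM or above stood 0 or 1 of the 13 genes in primary libraries, 4 or 5 in senescent and 5 in immortalized ones. The osteoblast list summed to 334 to 405, 1140 to 1190 and 1160 to 1380 CPM. Most of that was SPP1, a secreted protein that is made by many cell types, at 320 to 396, 1120 to 1170 and 1140 to 1360 CPM. The bone genes BGLAP, DMP1 and IBSP had at most 7 counts over any Simmental-like stage. Markers of other cells moved too: a list of 4 neural crest, melanocyte and Schwann genes summed to 12.8 to 26.3 CPM in primary, 49.3 to 54.3 CPM in senescent and 51.3 to 54.2 CPM in immortalized libraries. Most of that rise was S100B, at 10.4 to 11.7, 30.6 to 33.6 and 33.9 to 37.7 CPM. MITF overlapped between primary (1.88 to 15.7 CPM) and senescent libraries (13.5 to 16.1 CPM), and SOX10 went from 1 count to 139 and 102 counts. The tendon list rose from 5.48 to 11.2 CPM to 19.5 to 22.9 CPM, mostly from MKX, and TNMD had 0, 0 and 1 counts. Pericyte and smooth muscle genes summed to 100 to 189, 235 to 238 and 173 to 200 CPM at the 3 stages, and endothelial genes to at most 10.7 CPM. Nearly all of the pericyte and smooth muscle sum was CSPG4, at 100 to 189, 232 to 235 and 173 to 199 CPM. In the same list RGS5 had 0, 2 and 0 counts, and MYH11 and DES were at most 2.18 and 1.21 CPM. The part of these cells in the change of the 10 genes was not tested.

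**Figure D4:**
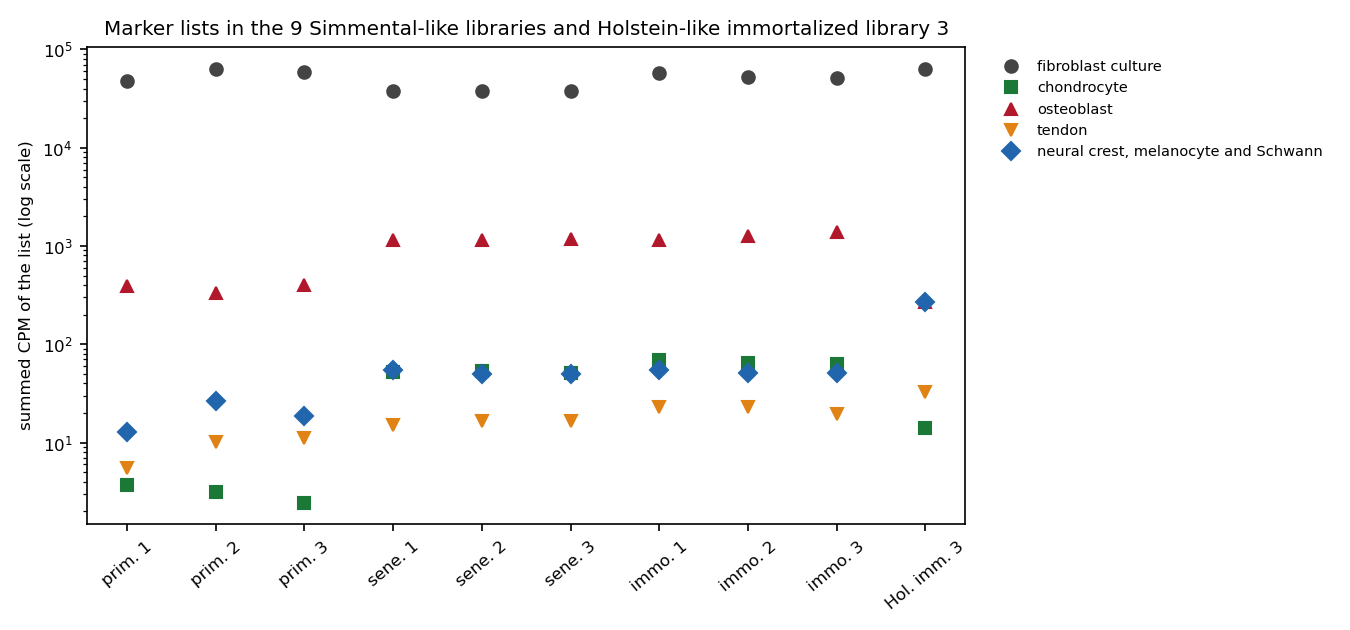
Summed CPM of 5 marker lists (vertical axis, log scale) in each Simmental-like library and in Holstein-like immortalized library 3. The fibroblast list lies at 37700 to 63700 CPM in all 10 libraries, and the chondrocyte list rises from at most 3.66 CPM in primary to at least 51.1 CPM in later Simmental-like libraries.

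Genes whose pattern over the 9 Simmental-like libraries was most like that of ACAN were PDE3B, JAKMIP2 and HGF, each with a Pearson correlation of 0.999 of log2(CPM + 0.5) among 9731 genes. HGF, for example, had mean levels of 0.0921, 25.0 and 24.5 CPM at the 3 stages. For SOX9 they were TM4SF1, GGFBPP5 and ISL1 (0.999 each), and for RUNX2 they included LRIG2 (0.992) and YOD1 (0.991). The 9 libraries fall into 3 stages and share their depth, so these values describe stage patterns that many genes have.

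The genes next to the members on the chromosome, by gene order in the RefSeq table for ARS-UCD2.0, did not show changes of the same size in the median. For the 5 tested genes on either side of SOX9 the median change between senescent and primary libraries was -0.43, with 2 higher and 6 lower. The 10 neighbours of ACAN had a median of -0.09, and those of COL2A1 had -0.40 here and -0.02 between immortalized and senescent libraries. Around SOX5 the neighbours were also higher, with a median of 1.01 and 6 of 10 past the threshold. Around the untested members the medians were 0.62 for SOX6 (5 higher, 3 lower), 0.55 for ALPL (6 and 1) and 0.44 for IBSP (3 and 0). The neighbours of SP7 had a median of -0.37, with 2 higher and 5 lower.

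Holstein-like immortalized library 3 was the library of that line whose summed fibroblast list reached the Simmental-like sums, beside high endothelial and immune markers. Most of its sum came from COL1A1, COL1A2 and COL3A1 (24400, 18100 and 12200 CPM). VIM (5160 CPM) and THY1 (295 CPM) lay below every Simmental-like library, whose lowest values were 11400 and 439 CPM. COL1A2, COL3A1 and DCN (3190 CPM) lay above every one, and COL1A1 and PDGFRA lay within the range. This library has no replicate of its kind, so no test was made. Of the 10 genes 3 lay above all 9 Simmental-like libraries (SOX6, COMP and ALPL) and 7 lay within their range. Among 14978 genes of at least 0.5 CPM in 1 of the 10 libraries, 32.4% lay above and 27.6% below that range, or 60.0% outside it, so the share of members above the range was close to that of all genes and the share outside it was below. At over 2-fold, 6 of 9 such members were higher and 0 lower than the primary mean (56.0% of all genes in either direction). Against the senescent mean 5 were higher and 2 lower (54.4%), and against the immortalized mean 4 were higher and 3 lower (56.4%).

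The cartilage factor SOX9 had 1 count in this library (0.0716 CPM), lower than in senescent Simmental-like libraries by a ratio of 162 (28.9 to 6400) and than in immortalized ones by 120 (21.5 to 4760). SOX5, in contrast, stood at 5.15 CPM, lower than in immortalized Simmental-like libraries by a ratio of 1.82 (1.42 to 2.36). ACAN had 1.72 CPM, lower than in immortalized Simmental-like libraries by a ratio of 17.9 (12 to 28.0), and HAPLN1 had 0 counts. COL2A1 was at 5.08 CPM, above the senescent Simmental-like libraries by a ratio of 2.68 (1.96 to 3.64) and below the immortalized ones by 3.17 (2.49 to 4.1). COMP was at 2.79 CPM and SOX6 at 0.716 CPM from 10 counts. COL2A1 was thus counted 71 times in a library with 1 count of SOX9.

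ALPL and SP7 were higher there than at the later Simmental-like stages. ALPL stood at 39.1 CPM from 547 counts, above the senescent Simmental-like libraries by a ratio of 68.0 (48.1 to 99.3) and above the immortalized ones by 114 (72.8 to 187). SP7 was at 2.00 CPM, within the primary range and above immortalized Simmental-like libraries by a ratio of 116 (19.2 to 4760). RUNX2 was at 13.4 CPM, between the immortalized and the senescent Simmental-like libraries. IBSP had 0 counts, BGLAP 4 and DMP1 3. The neural crest and Schwann factor SOX10 was at 25.9 CPM in this library, the list of 4 neural crest, melanocyte and Schwann genes summed to 271 CPM, and the tendon and muscle gene THBS4 was at 18.8 CPM. The endothelial genes VWF and PECAM1 were at 2400 and 1460 CPM, and the immune genes CD74 and CD68 at 2230 and 579 CPM. The part of those cells in its levels was not tested.

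In the other 8 Holstein-like libraries most of the 10 genes were low. SOX9 was at most 1.65 CPM, ACAN at most 0.910 CPM, COMP at most 0.685 CPM, which is 1 count, SP7 at most 0.182 CPM and RUNX2 at most 2.60 CPM. SOX6, ALPL and SOX5, and COL2A1 in 1 library, were the exceptions. SOX6 stood at 29.5, 35.4 and 25.3 CPM in the libraries labelled primary, in which 6 skeletal muscle genes summed to 161000 to 163000 CPM, while SOX5 had 0 counts there. In the libraries labelled senescent SOX6 had 2.20, 5.27 and 9.15 CPM, and in immortalized libraries 1 and 2 it had 4.11 and 19.2 CPM. SOX5 was between 5.25 and 7.13 CPM in senescent libraries 2 and 3 and immortalized libraries 1 and 2, and 0.639 CPM in senescent library 1.

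ALPL, whose product is also made by liver, kidney and other tissues, ran from 3.76 CPM in senescent library 1 to 368 CPM in immortalized library 2. It was at 55.2, 114 and 95.7 CPM in senescent libraries 2 and 3 and immortalized library 1, in which 7 liver genes summed to 128000 to 135000 CPM. Immortalized library 2, in which 6 kidney genes summed to 8310 CPM, also had COL2A1 at 12.4 CPM from 136 counts, with 0 counts of SOX9 and 10 of ACAN. The part of the organ in each of these levels was not tested.

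**Figure D5:**
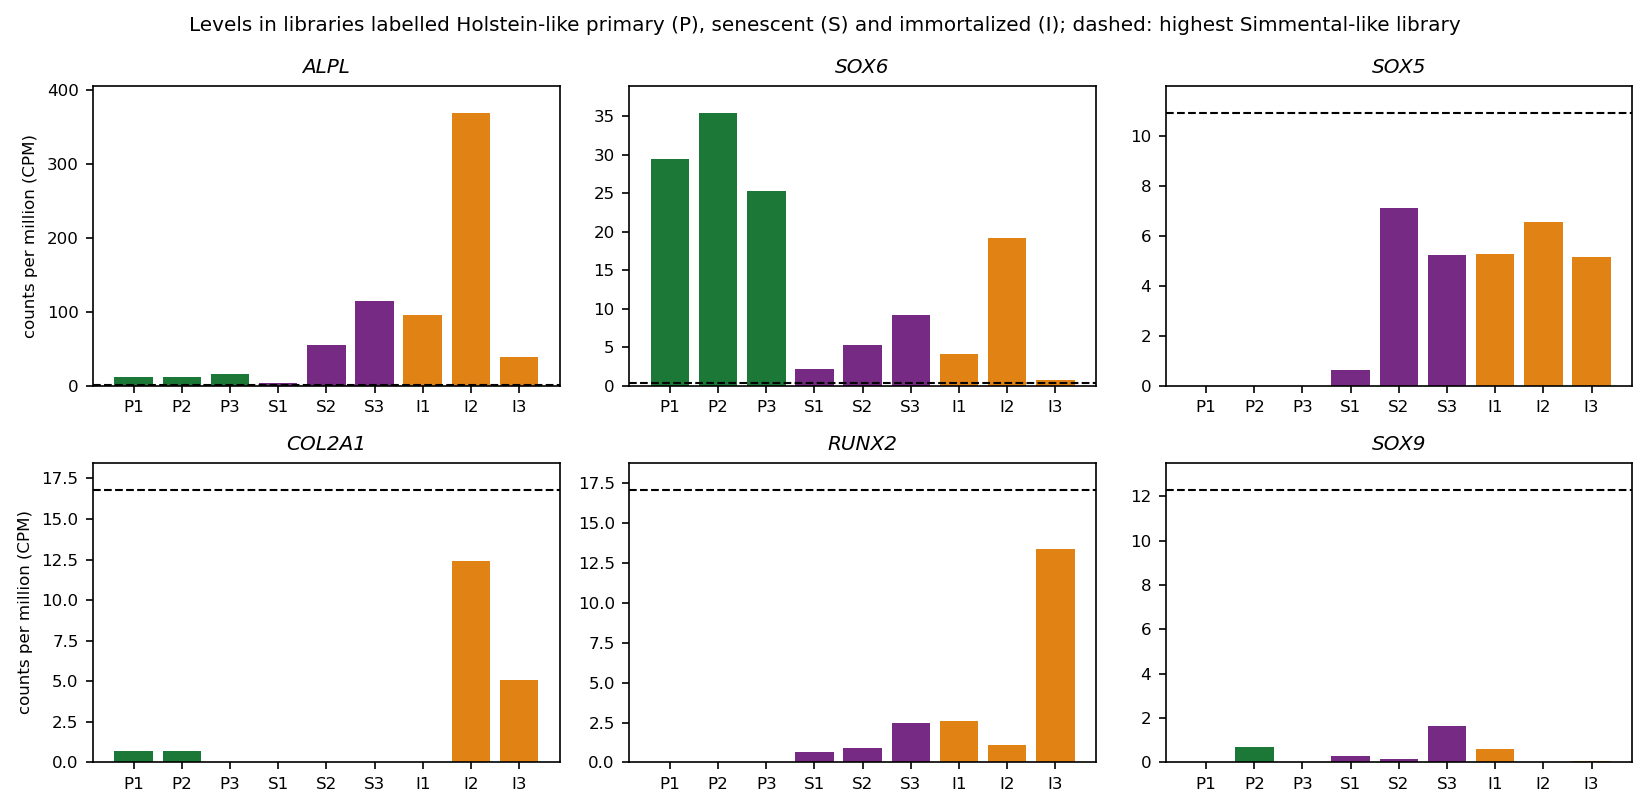
Levels in CPM (vertical axis, linear, from 0) of 6 genes in the 9 libraries labelled Holstein-like, with the highest Simmental-like library as a dashed line. ALPL and SOX6 lie above that line in all 9 libraries, and SOX5, COL2A1, RUNX2 and SOX9 lie below it in all 9.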

How the data were processed

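RNA was sequenced from 18 libraries (RNeasy mini kit, NEB library kit, single reads, per the labels' protocols). The authors deposited 1 table of expected counts with an Ensembl gene in each row, and the name of the table says that salmon gave them and that they were merged. The submitters' processing notes name the build UMD3.1. Not given in the sources used here: the salmon version, its annotation and how strand was treated. Estimated counts were rounded for tests. CPM were taken over column totals of the deposited counts.

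The 9 Simmental-like libraries were fitted with edgeR 4.0.16 in R 4.3.3 (TMM, filterByExpr by stage, robust quasi-likelihood F-test, Benjamini-Hochberg over all genes, threshold 0.05). SE is the change over the square root of F. Ratios use summed counts with exact 95% counting intervals, and 3 counts over the group where a group had 0. Of 100 genes simulated with 4-fold changes for senescent against primary, 88 were called, of 100 with 2-fold changes 49, and of 12899 unchanged genes 5 (13099 genes in all). The simulation used 1 spread per gene at all stages and few changed genes. In the data the spread differed between stages and 58.0% of genes passed, so these rates may not hold for them. Senescent libraries 1 and 2 had a chi-square per gene of 1.36, nearer to sampling noise than the other pairs, and were kept as 2 libraries, with their sum as an alternative.

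The text names the 10 members, up to 4 genes past the threshold with the largest change per list and comparison, the 3 genes most like ACAN, SOX9 and RUNX2, and marker genes. Some of these are also given in other comparisons, and COL11A1 is named beside them. Some genes that this rule names, and marker genes left out of a list's sum, are not reported here. The members and lists were chosen with earlier results of these data known. Alternatives were other scalings (RLE, upper quartile, total count), no filter, a filter of 5 CPM in 3 libraries, DESeq2 1.42.0, limma-voom (limma 3.58.1), other sets of libraries, a replicate block, calls of at least 2-fold and fits without 1 library at a time. RefSeq genes of ARS-UCD2.0, matched by symbol for 10 of 10 members, gave gene order only. Coordinates and sequences were not used here.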

Additional observations from a re-analysis of the deposited data

Results flagged for a closer look

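Of the 10 genes, 3 were higher in a Holstein-like library outside the comparisons than in the 9 Simmental-like libraries and Holstein-like immortalized library 3. SOX6 reached 35.4 CPM in the library labelled Holstein-like primary 2, from 52 counts. ALPL reached 368 CPM in Holstein-like immortalized library 2, from 4043 counts. IBSP reached 0.300 CPM in Holstein-like senescent library 3, from 4 counts, just over the floor of 3 counts.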

How the results depend on the processing

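Of 411 values of single members under the alternatives, 382 kept their direction and side of the threshold, 24 lost the call, 1 gained it and 4 changed sign. The 4 are the changes between immortalized and senescent libraries of COMP without senescent replicate 2 (0.09) or immortalized replicate 2 (0.04), in a range of -0.44 to 0.09 when 1 library was left out, and of ACAN under total count scaling (-0.01), and that of RUNX2 between immortalized and primary libraries without primary replicate 3 (-0.01, in a range of -0.01 to 0.33). ACAN, SOX9 and SOX5 kept their calls against primary in every alternative run. Members called between senescent and primary libraries were 7, and 4 in the fit on all 18 libraries. Between immortalized and senescent libraries they were 3, and 0 in the edgeR fit on all 18 libraries (2 at an unadjusted p under 0.05), where Holstein-like libraries enter the spread. DESeq2 and limma-voom, run on the 9 Simmental-like libraries only, called 3. Leaving out 1 library gave 1 to 3 there, 7 to 8 (ALPL added) between senescent and primary and 6 between immortalized and primary libraries. Same-numbered libraries did not deviate together (correlations from -0.499 to 0.182 over 9 pairs), and with the number as a replicate block 1 member was called between immortalized and senescent libraries, without RUNX2 (adjusted p = 0.0562) and SP7 (0.0831).

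All genes called were 7591, 4249 and 6607 for senescent against primary, immortalized against senescent and immortalized against primary. They were 2025, 416 and 1800 in the fit on all 18 libraries and 4077, 1890 and 3521 at 2-fold or more. Immortalized against senescent gave 8600 in the fit on 6 libraries and 7793 without primary replicate 1. Scaled by total counts the splits were 5955 higher and 1840 lower, 1505 and 2698, and 4580 and 2098, against 3704 and 3887, 2146 and 2103, and 3264 and 3343. The members outside the Simmental-like range in Holstein-like immortalized library 3 stayed at 3 under both other scalings. Counts limit COMP, SP7, SOX6, ALPL and IBSP.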
